A study of Mus musculus with 20 samples.

Results

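The comparison described here sets 5 heart ventricle samples whose titles read beta against 5 whose titles read OVX, 10 of the 20 arrays of the series. The title and the treatment label of the first 5 samples disagree: the title names beta, while the treatment field says that the animals received control solution, and no label says what beta stands for. These samples are therefore called the beta-titled group and the other 5 the placebo group, following the labels only as far as they go. Both groups came from female C57BL/6 mice of Harlan breeding whose ovaries were removed when they were 8 weeks old and that carried an Alzet minipump for 4 weeks. Cyclodextrin-complexed estrogens or placebo solution filled the pumps, per the labels, and no dose, no pooling of animals and no receptor genotype is stated. The other 10 arrays, 5 with the estrogen receptor α agonist 16α-LE2 and 5 with 17β-estradiol, entered only the shared estimate of spread and the side-by-side values near the end. Total RNA was hybridised to Affymetrix mouse arrays, 1 array a sample. The labels do not say in so many words that each sample was a separate animal, so the p-values measure only the spread between these samples.

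Estradiol acts in the heart through 2 nuclear receptors, α (encoded by Esr1) and β (encoded by Esr2), and ovariectomy removes the main source of the hormone. Placebo-treated ovariectomized mice therefore serve as the estrogen-poor baseline against which an agonist is read. Estrogen receptor signalling in ventricle has been linked to matrix production, glucose and fatty acid use and myosin isoforms, and those gene groups are followed below beside stress, clock and cell type genes. Among 12082 genes above the expression filter, no gene passed a Benjamini-Hochberg adjusted p of 0.05 in the limma fit, which called 0% of them, and the smallest adjusted p was 0.397, for Mpp7. Without that adjustment 689 genes (5.7%) had a p under 0.05. The 95% confidence interval of the difference lay within 1.5-fold in either direction for 11692 genes (96.8%).

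Levels are given on the log2 scale of the deposited values, differences are beta-titled minus placebo in log2 units, and each array is named by its group and the number in its title. All 10 ventricle markers of the list used here passed the filter. So did 13 of the 16 atrial and 13 of the 20 skeletal muscle markers on the array. Passing the filter therefore does not tell ventricle from other muscle. Myl2, the ventricular regulatory myosin light chain, ranged from 14.50 to 14.81 in the beta-titled arrays and from 14.63 to 14.89 in placebo. Myl7, the atrial counterpart, ranged from 8.15 to 10.15 and from 8.36 to 9.89. The atrial marker thus varied by a similar amount within each group, and the groups overlapped. Esr1 lay just above the filter level of 6.93 in both groups but below it over all 20 arrays, at 6.94 ± 0.076 in the beta-titled group and 6.94 ± 0.11 in placebo (SD, 5 arrays in each). Esr2 lay at 6.59 ± 0.081 and 6.53 ± 0.057. Both receptors were therefore left out of the test.

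The sign of most differences followed the level of the gene and 3 of the arrays. In all, 7569 genes (62.6%) lay below placebo in the beta-titled group, with a median difference of −0.04. Of the 689 genes of small unadjusted p, 644 were lower (5.33% of the genes tested) and 45 were higher (0.372%). With the genes cut into 4 equal bins by mean level, 66.7% of the lowest bin lay above placebo and 9.04% of the highest did, with median differences of 0.03 and −0.16. The SD over all probe sets of an array was 1.32 and 1.30 on beta-titled arrays 31 and 32, the narrowest of all 20, and 1.42 to 1.43 on beta-titled 33, 35 and 36. On placebo arrays it ranged from 1.41 to 1.48, with placebo 33 the widest of the series. The group means, 1.38 ± 0.064 and 1.44 ± 0.028, differed by −0.0639, with a two-sided exact permutation p of 0.0635, where 5 against 5 arrays cannot go below 0.00794.

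**Figure D1:**
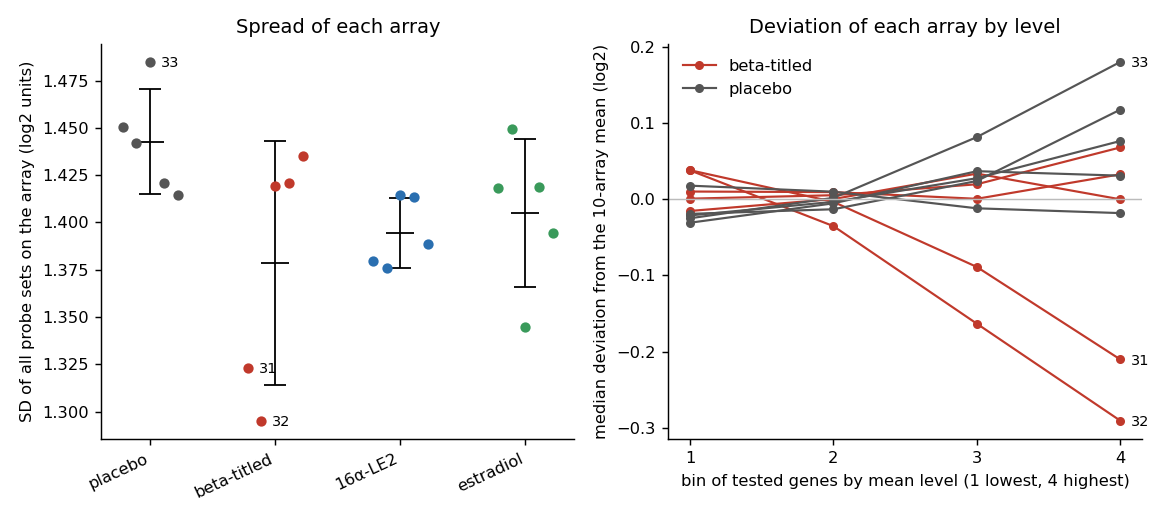
SD of all probe sets on each array by group (left; points are arrays, bars mean ± SD over 5 arrays) and, for each of the 10 arrays compared, the median deviation from the 10-array mean in 4 equal bins of the tested genes by level (right; log2 units). Beta-titled 31 and 32 lie at −0.21 and −0.29 in the highest bin and placebo 33 at 0.18.

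Leaving out those arrays or rescaling removed most of the lopsidedness. Without beta-titled 31 and 32, 16 genes were higher and 25 lower at an unadjusted p under 0.05, and with placebo 33 left out as well the counts were 7 and 12. With all 10 arrays after quantile normalization they were 105 and 138, so that 56.8% of these genes were lower in place of 93.5%. With every array scaled to the same mean and SD they were 90 and 175, and 66% were lower. The split also moved with all 10 arrays kept and their values unchanged. It was 218 higher and 608 lower (73.6% lower) when only these 10 arrays were fitted. It was 273 and 996 (78.5%) without estradiol 33 and 261 and 599 (69.7%) with array weights. With no filter it was 435 and 643 (59.6%), over 18193 genes in place of 12082, so the lower count stayed close to 644. Over the fits that left out 1 of the 10 arrays the count of both directions together ranged from 156, without beta-titled 32, to 1174, without placebo 36. Genes are therefore described below with the values of single arrays, and a direction that turned under another scaling is named as such. Arrays of different groups were as alike as arrays of 1 group: Spearman correlations over the tested genes ran from 0.961 to 0.99 between groups (median 0.981), from 0.975 to 0.986 within the beta-titled group and from 0.964 to 0.989 within placebo (median 0.979 in each).

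The genes of smallest p lay below placebo and kept that direction at every setting tried. Mpp7 encodes a membrane-associated guanylate kinase that takes part in cell polarity complexes. Its levels were 7.46, 7.44, 7.91, 7.48 and 7.64 in beta-titled 31, 32, 33, 35 and 36, and 8.05, 7.86, 8.15, 8.76 and 8.40 in placebo 31, 32, 33, 34 and 36. All beta-titled arrays but number 33 lay below every placebo array, and placebo 34 stood highest. The difference was −0.66 ± 0.13 (SE), a 1.58-fold lower level, with a limma adjusted p of 0.397. The adjusted p was 0.0543 without placebo 32, the smallest for it in any fit that left out 1 array, and 1 without both beta-titled 31 and 32. Another 4 probe sets of the gene gave differences from −0.27 to −0.00. Of the 28 tested genes of the cell polarity list 14 lay above and 14 below placebo, and Mpp7 was the 1 member with an unadjusted p under 0.05.

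Cdkn1a, which encodes the cell cycle inhibitor p21, had the largest difference below placebo. It stood at 9.14, 9.44, 9.18, 9.93 and 9.45 in beta-titled 31, 32, 33, 35 and 36, and at 9.98, 10.03, 10.86, 10.29 and 10.21 in placebo 31, 32, 33, 34 and 36. The groups did not overlap, although beta-titled 35 and placebo 31 lay close together, and placebo 33 was the highest array. The difference was −0.85 ± 0.19 (SE), 1.80-fold lower, with a limma adjusted p of 0.707 and an unadjusted p of 0.000147. A second probe set differed by −0.87. Without beta-titled 31 and 32 the difference was −0.75, and without placebo 33 it was −0.70. Over all tested genes, 49 of 12082 (0.406%) had all 5 beta-titled arrays below all 5 placebo arrays, and 53 (0.439%) had them above. If every grouping of the 10 arrays were alike, a share of 0.00794 of genes would separate in either direction. The counts are near that share, so a lack of overlap, here and below, only describes a gene.

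Other targets of p53, the damage-responsive transcription factor that acts on Cdkn1a, gave no call. Of 19 tested genes of that list 5 lay above placebo and 14 below, with a median of −0.15 against −0.04 over all tested genes, and Cdkn1a was the 1 member with an unadjusted p under 0.05. The median was −0.03 after quantile normalization. Mdm2, the ubiquitin ligase that restrains p53, differed by −0.25 (limma adjusted p = 0.707).

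Tnfrsf12a encodes the receptor of the cytokine TWEAK, which is known to be induced in stressed heart muscle. Its levels were 10.53, 10.03, 10.58, 10.73 and 9.63 in beta-titled 31, 32, 33, 35 and 36, against 10.83, 10.76, 11.31, 11.35 and 11.02 in placebo 31, 32, 33, 34 and 36. The groups did not overlap, but beta-titled 35 and placebo 32 lay close together. The difference of −0.76 ± 0.17 (SE) gave a limma adjusted p of 0.707. Across the 26 alternative settings in which Cdkn1a and Tnfrsf12a were both refitted, their differences ranged from −0.97 to −0.61 and from −0.86 to −0.59, with an unadjusted p under 0.05 in each. In the TNF receptor family list 10 of 17 tested genes lay above placebo, and Tnfrsf12a was the 1 gene of small unadjusted p.

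**Figure D2:**
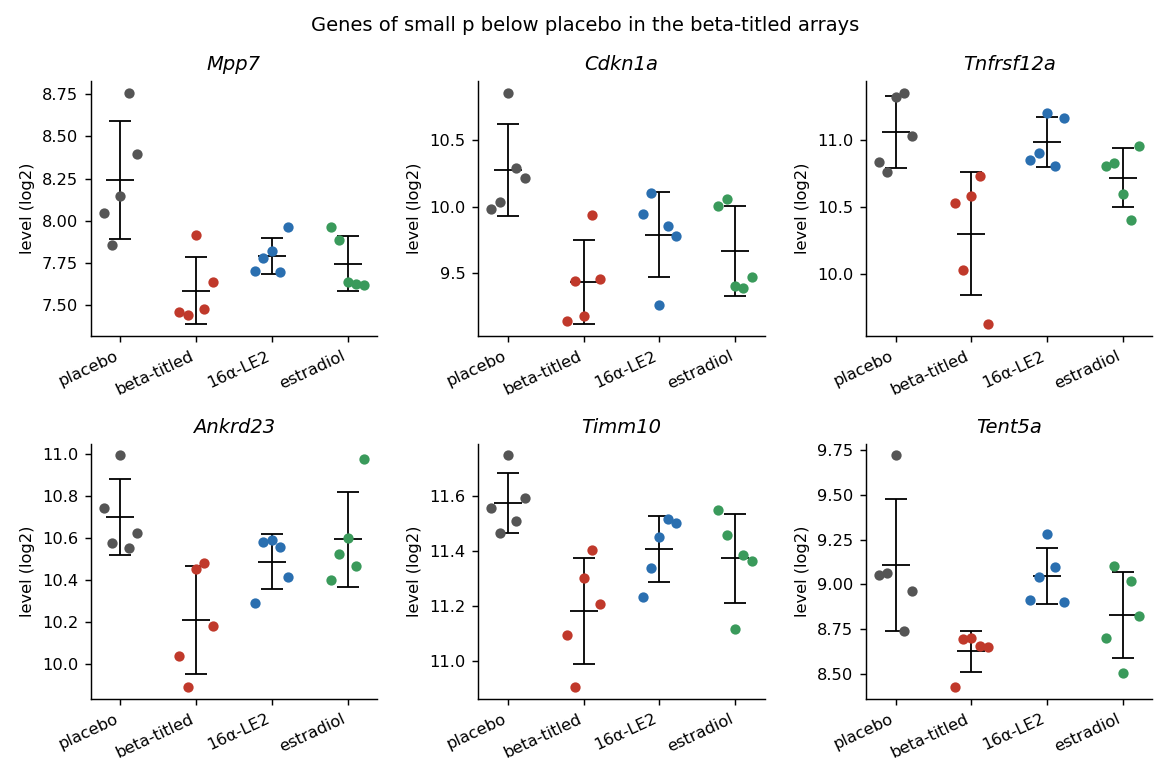
Levels (log2) of 6 genes of small p on all 20 arrays, points for arrays and bars for mean ± SD over 5 arrays. Each gene except Mpp7 has all beta-titled arrays below all placebo arrays, and all 6 have a limma adjusted p of 0.397 or more for beta-titled against placebo.

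The list of cardiomyocyte stretch and stress genes held several members of small unadjusted p. Of 19 tested, 5 were lower at an unadjusted p under 0.05 and 0 higher (5.33% and 0.372% over all tested genes), and the median was −0.17. The median was −0.06 with quantile normalization and −0.09 without beta-titled 31 and 32. At those settings 2 and 3 members were lower and 1 was higher. Ankrd23, a titin-associated ankyrin repeat protein of the sarcomere, had levels of 10.04, 9.89, 10.45, 10.48 and 10.18 in beta-titled 31, 32, 33, 35 and 36 and of 10.74, 10.58, 10.99, 10.55 and 10.62 in placebo 31, 32, 33, 34 and 36. The groups did not overlap, beta-titled 33 and 35 coming nearest to placebo. The difference was −0.49 ± 0.13 (SE; limma adjusted p = 0.707), and −0.33 without beta-titled 31 and 32.

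Natriuretic peptide genes, which ventricle muscle switches on under load, differed in value. Nppb, the gene for brain natriuretic peptide, stood at 12.56, 11.73, 12.29, 12.002 and 11.76 in the beta-titled arrays in the same order, and at 12.90, 12.63, 12.35, 12.38 and 12.42 in placebo. Beta-titled 31 lay within the placebo range and the rest below it. The difference was −0.47 (limma adjusted p = 0.707), and −0.27 after quantile normalization. Nppa, the atrial natriuretic peptide gene, differed by −0.16 ± 0.19 (SE; limma adjusted p = 0.833), a sign that turned after quantile normalization, after scaling to 1 SD and without beta-titled 32. Csrp3, a Z-disc LIM protein, differed by −0.25, and by 0.05 when every array was scaled to the same SD.

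Smaller differences below placebo without overlap were seen in Timm10, a chaperone of mitochondrial protein import (−0.39 ± 0.10, SE), and Tnfaip2, a gene induced by tumour necrosis factor (−0.36 ± 0.10). Tent5a, a poly(A) polymerase (−0.48 ± 0.14), and Plin5, a lipid droplet protein that PPAR factors induce (−0.48 ± 0.15), were of the same kind. Each had a limma adjusted p of 0.707. Plin5 ranged from 11.39 to 11.93 in the beta-titled arrays and from 11.94 to 12.13 in placebo, so the groups met without overlapping. Zfp867, Plscr1, Ces1d, Tfam and Cst3 completed the 12 lower genes of smallest p, with differences from −0.40 to −0.27. Tfam, which packages and transcribes mitochondrial DNA, stood at 9.23 ± 0.24 against 9.62 ± 0.14 (SD). Cst3, the protease inhibitor cystatin C, shrank to −0.00 once every array was scaled to 1 SD. Gbp6 was also among the 5 largest differences below placebo. It ranged from −0.94 to −0.17 over 26 alternative settings, with an unadjusted limma p under 0.05 at 5 of them.

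The genes of smallest p above placebo had small differences. Dnm1, a dynamin GTPase, read 7.30, 7.19, 7.02, 7.08 and 7.05 in beta-titled 31, 32, 33, 35 and 36, and 6.85, 6.95, 6.94, 6.99 and 6.86 in placebo. The groups did not overlap, with beta-titled 31 and 32 highest. Its difference was 0.21 ± 0.06 (SE; limma adjusted p = 0.707). Synrg, Smtnl2 and the chaperone gene Hyou1 also had all beta-titled arrays above placebo, by 0.14, 0.17 and 0.15. Other genes of this kind (Gm33409, Kcnv2, Fam83g, Ppl, Tas1r2, Clmn, Map1b and Slx4) overlapped and lay 0.14 to 0.20 above placebo. All 12 kept the direction at each alternative setting that tested them. Dnm1, Gm33409, Fam83g, Synrg and Tas1r2 lay near the filter level of 6.93, with group means of 6.84 to 7.14 in beta-titled and placebo arrays. These genes and Kcnv2, Ppl, Clmn and Map1b belong to the lowest bin by level, which reached 7.46 and where 66.7% of all genes lay above placebo.

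The largest positive differences came from genes that varied widely within both groups. Ppbp, a platelet chemokine, read 9.56, 8.61, 8.41, 10.06 and 9.16 in the beta-titled arrays and 7.51, 7.38, 7.69, 9.40 and 9.76 in placebo, with placebo 34 and 36 inside the beta-titled range. The platelet receptor gene Clec1b was high in the same arrays, at 8.05 and 8.35 in placebo 34 and 36 against 6.74 to 6.79 in the other placebo arrays. Their differences were 0.81 ± 0.64 and 0.47 ± 0.46 (SE), with limma adjusted p of 0.74 and 0.788. In whole ventricle RNA, fewer cells of a type and less RNA per cell cannot be told apart. Neat1, a nuclear long noncoding RNA, and Nfix, a transcription factor gene, each differed by 0.43.

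Genes of the circadian clock had values on both sides of placebo. The clock is a loop in which CLOCK and BMAL1 (encoded by Arntl) drive E-box genes such as the Per and Cry repressors, while the PAR bZIP factors DBP, TEF and HLF act on D-boxes as outputs. No label gives the time of tissue collection. Of 18 tested clock genes 12 lay above placebo, 2 were higher and 2 lower at an unadjusted p under 0.05, and 3 had all beta-titled arrays above placebo, where 0.439% of all genes did. The list median was 0.07, and 0.11 after quantile normalization.

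Per3, a period gene, read 8.02, 8.12, 7.80, 7.95 and 8.03 in beta-titled 31, 32, 33, 35 and 36 and 7.43, 7.77, 7.24, 7.78 and 7.76 in placebo 31, 32, 33, 34 and 36. The groups did not overlap, though beta-titled 33 lay just above placebo 34. The difference was 0.39 ± 0.13 (SE; limma adjusted p = 0.707), and its 5 other probe sets gave 0.02 to 0.26. Hlf read 7.85, 7.93, 8.01, 8.06 and 8.22 against 7.53, 7.78, 7.26, 7.67 and 7.76, again without overlap, a difference of 0.41 ± 0.17. A second probe set of Hlf gave 0.22. Dbp differed by 0.40 ± 0.38, with placebo 33 lowest at 8.29 and the other placebo arrays between 9.06 and 9.57.

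Arntl and Clock, on the activating side, had lower values. Arntl read 7.02, 6.78, 7.19, 6.82 and 6.72 in the beta-titled arrays and 7.49, 7.15, 8.58, 7.63 and 6.97 in placebo, where array 33 stood far above the next. Placebo 36 and 32 lay inside the beta-titled range, so the groups overlapped. The beta-titled values of 6.78, 6.82 and 6.72 lay below the filter level of 6.93, so the gene was near the low end there. The difference was −0.66 ± 0.28 (SE; limma adjusted p = 0.707), and a second probe set of lower level gave 0.06. Clock differed by −0.50 ± 0.18, from 9.25 ± 0.36 in placebo to 8.75 ± 0.30 (SD). Its other probe sets gave −0.31, −0.38 and 0.02, the last at a mean level of 6.18.

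Placebo 33 carried part of this pattern. It held the highest Arntl, Clock and Nfil3 and the lowest Per3, Hlf and Dbp levels of the 10 arrays. Without it Arntl differed by −0.40 (unadjusted p 0.127), Clock by −0.39 (0.0403), Per3 by 0.30 (0.0357), Hlf by 0.33 (0.073) and Dbp by 0.18. The directions were the same, 1 clock gene was higher and 1 lower at an unadjusted p under 0.05, and 14 of the 18 genes then lay above placebo, where 63.4% of all genes lay below. With beta-titled 31 and 32 left out too, 0 clock genes had an unadjusted p under 0.05 in limma.

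**Figure D3:**
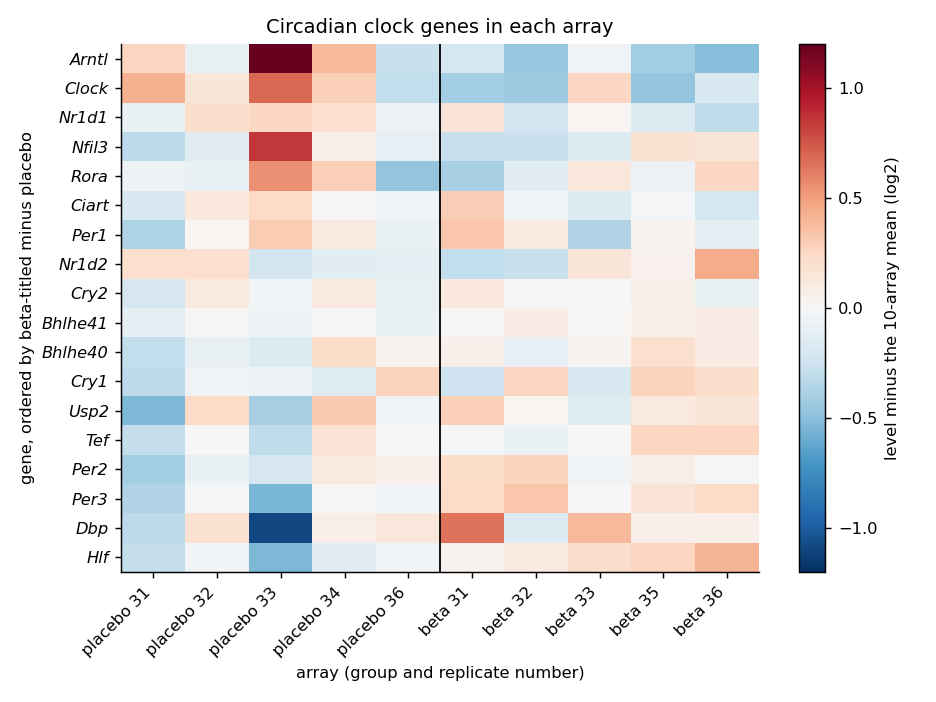
Level of 18 clock genes on each of the 10 arrays, as the difference from the gene's mean over those arrays (log2; red above, blue below), ordered by the beta-titled minus placebo difference. Placebo 33 stands out with high Arntl (8.58) and low Dbp (8.29), and Per3 and Hlf are higher on every beta-titled array than on any placebo array.

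Promoters of the clock genes, 250 bases before to 50 after the start, were searched because members lay on opposite sides of placebo. RefSeq (GRCm38.p6) promoters were found for 16 of the clock genes, 21 in all. The D-box letters TTATGTAA, on either strand, occurred in 1 of the 16 genes, Per3, against 1.11% of the 27025 genes with a promoter in the table and 0.938% of 32851 promoters. The E-box letters CACGTG, which read the same on both strands, occurred in 5 of the 16 genes (Bhlhe41, Ciart, Cry1, Per1 and Tef), against 8.09% of genes. These counts describe the clock list, and the matches were not compared between genes above and below placebo. The 2 D-box matches of Per3 begin 205 and 158 bases before the start. The promoter is shown because Per3 was the clock gene of smallest p and the 1 with D-box letters; it lies on the minus strand at chr4:151044616-151044915 (GRCm38.p6), and capitals mark the D-box letters.
Per3: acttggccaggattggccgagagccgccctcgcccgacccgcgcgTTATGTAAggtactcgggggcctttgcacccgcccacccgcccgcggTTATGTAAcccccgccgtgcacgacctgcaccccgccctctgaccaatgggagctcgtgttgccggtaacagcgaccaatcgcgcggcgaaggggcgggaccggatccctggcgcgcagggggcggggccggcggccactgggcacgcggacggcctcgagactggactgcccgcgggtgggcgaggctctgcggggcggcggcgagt
Neither match says whether a factor binds there, and no letters of either kind were found in the windows of Arntl, Clock, Hlf or Dbp.

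Energy metabolism genes, many of them highly expressed in ventricle, lay below placebo as a body, and that direction depended on the scaling. All 34 tested respiratory chain genes were lower in the beta-titled group, 17 at an unadjusted p under 0.05 (5.33% of all tested genes were), with a median of −0.18. The 17 became 1 without beta-titled 31, 2 without beta-titled 32, 5 without placebo 33 and 26 without placebo 36, and 0 after quantile normalization or scaling to 1 SD. Without beta-titled 31 and 32 together 33 of the 34 still lay below placebo (median −0.08), where 44.9% of all tested genes lay above. With placebo 33 left out as well all 34 lay below (median −0.06), where 49.1% of all tested genes lay above. At both settings 0 of the 34 had an unadjusted p under 0.05. Over all tested genes the lower count of 644 was 171 without beta-titled 31 and 136 without beta-titled 32. The list median was −0.01 after quantile normalization, and after scaling every array to 1 SD all 34 lay above placebo with a median of 0.12, where 48% of all genes lay below. Ndufa9, a subunit of complex I, read 12.57, 12.47, 12.59, 12.76 and 12.70 in beta-titled 31, 32, 33, 35 and 36 and 12.96, 12.95, 12.84, 12.77 and 12.64 in placebo 31, 32, 33, 34 and 36. Its groups overlapped through placebo 36 alone, and placebo 34 lay just above beta-titled 35. Its difference of −0.22 ± 0.08 (SE; limma adjusted p = 0.707) became 0.03 after scaling to 1 SD.

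Of the citric acid cycle genes 0 of 20 lay above placebo and 7 were lower at an unadjusted p under 0.05, against 5.33% over all tested genes. The count was 2 without beta-titled 31, 1 without beta-titled 32, 3 without placebo 33 and 12 without placebo 36, and 0 after quantile normalization or scaling to 1 SD. Without beta-titled 31 and 32 together it was 0, and 17 of the 20 still lay below placebo (median −0.06). The same held with placebo 33 left out as well. The median of −0.18 became 0.05 after scaling to 1 SD. Fatty acid uptake and oxidation genes had a median of −0.17 (1 of 21 above), and it was 0.09 after that scaling. Sdhc, a membrane subunit of succinate dehydrogenase, differed by −0.30, and Echs1, an enzyme of fatty acid β-oxidation, by −0.27; both kept their sign at every setting. The PPAR-responsive lipid genes kept a negative median under both scalings, −0.22 as deposited, −0.08 after quantile normalization and −0.11 after scaling to 1 SD, with 1 of 12 members, Plin5, at an unadjusted p under 0.05.

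Glucose handling, the theme of the series, showed no call. Slc2a1, which encodes the basal glucose transporter GLUT1, read 8.18, 8.38, 8.36, 8.46 and 8.50 in beta-titled 31, 32, 33, 35 and 36, and 8.43, 8.62, 8.42, 8.31 and 8.52 in placebo 31, 32, 33, 34 and 36. The groups overlapped over most of their range. The difference was −0.08 ± 0.10 (SE; 95% interval −0.29 to 0.12; limma adjusted p = 0.834). Slc2a4, the insulin-responsive GLUT4, differed by −0.10 ± 0.10, and by 0.07 after quantile normalization.

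Within insulin signalling, Irs1, the adaptor of the insulin receptor, read 9.25, 9.53, 10.23, 9.73 and 9.60 in the beta-titled arrays and 9.93, 9.98, 11.16, 10.44 and 9.80 in placebo. Beta-titled 33 lay within the placebo range and placebo 33 above all others. The difference was −0.60 ± 0.23 (SE; limma adjusted p = 0.707), and −0.37 without placebo 33. Pdpk1, the kinase that activates AKT, differed by −0.29. Of the 25 genes in the list 4 lay above placebo, and the median was −0.08 as deposited and −0.00 after quantile normalization. Pdk4, which switches off pyruvate dehydrogenase, stood at 13.36 ± 0.15 against 13.77 ± 0.24 (SD), a difference of −0.41 (limma adjusted p = 0.707) that shrank to −0.12 after scaling to 1 SD.

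Contractile genes gave values on both sides. Myh7, the β myosin heavy chain, read 9.93, 9.97, 10.01, 10.64 and 9.997 in beta-titled 31, 32, 33, 35 and 36 and 9.29, 9.91, 9.31, 10.45 and 9.34 in placebo 31, 32, 33, 34 and 36. Each group had 1 array well above the rest, and the groups overlapped through placebo 34. The difference was 0.45 ± 0.22 (SE; limma adjusted p = 0.707), 0.32 without beta-titled 35 and 0.65 without placebo 34. The sarcomere list had 5 of 25 genes above placebo and a median of −0.13, which turned to 0.04 after quantile normalization and 0.17 after scaling to 1 SD. Heat shock chaperones had 4 of 18 members lower at an unadjusted p under 0.05, among them Hsp90aa1 (−0.38), Hspb8 (−0.28) and Hspe1 (−0.27), and a median of −0.21 that was −0.07 after quantile normalization. Over all tested genes 5.33% were lower, and the count of 4 was 1 without beta-titled 31 or without 32 and 0 after quantile normalization or scaling to 1 SD.

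Interferon-stimulated genes and macrophage markers were set apart by 1 placebo array. The interferon-stimulated genes had a mean level of 9.86 in placebo 36, 8.27 to 8.62 in the other placebo arrays and 8.29 to 8.84 in the beta-titled arrays. Igtp, an interferon-induced GTPase, read 12.56 in placebo 36 and 8.46 to 8.72 in the other placebo arrays, and in the beta-titled arrays 9.92 and 10.12 in numbers 33 and 36 against 8.34 to 8.76 in the other 3. Of 22 tested interferon genes 18 lay below placebo with a median of −0.22, and without placebo 36, 18 lay above with a median of 0.10, where 60.4% of all genes lay below. In both cases 0 had an unadjusted p under 0.05. Macrophage markers followed: their mean level was 10.10 in placebo 36 and 8.82 to 9.27 in the other placebo arrays, and 8.90 to 9.48 in the beta-titled arrays. Of 25 macrophage genes on the array 24 passed the filter, and their median of −0.16 became 0.04 without placebo 36. Whether that array's immune signal bears on other differences was not tested beyond these values.

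**Figure D4:**
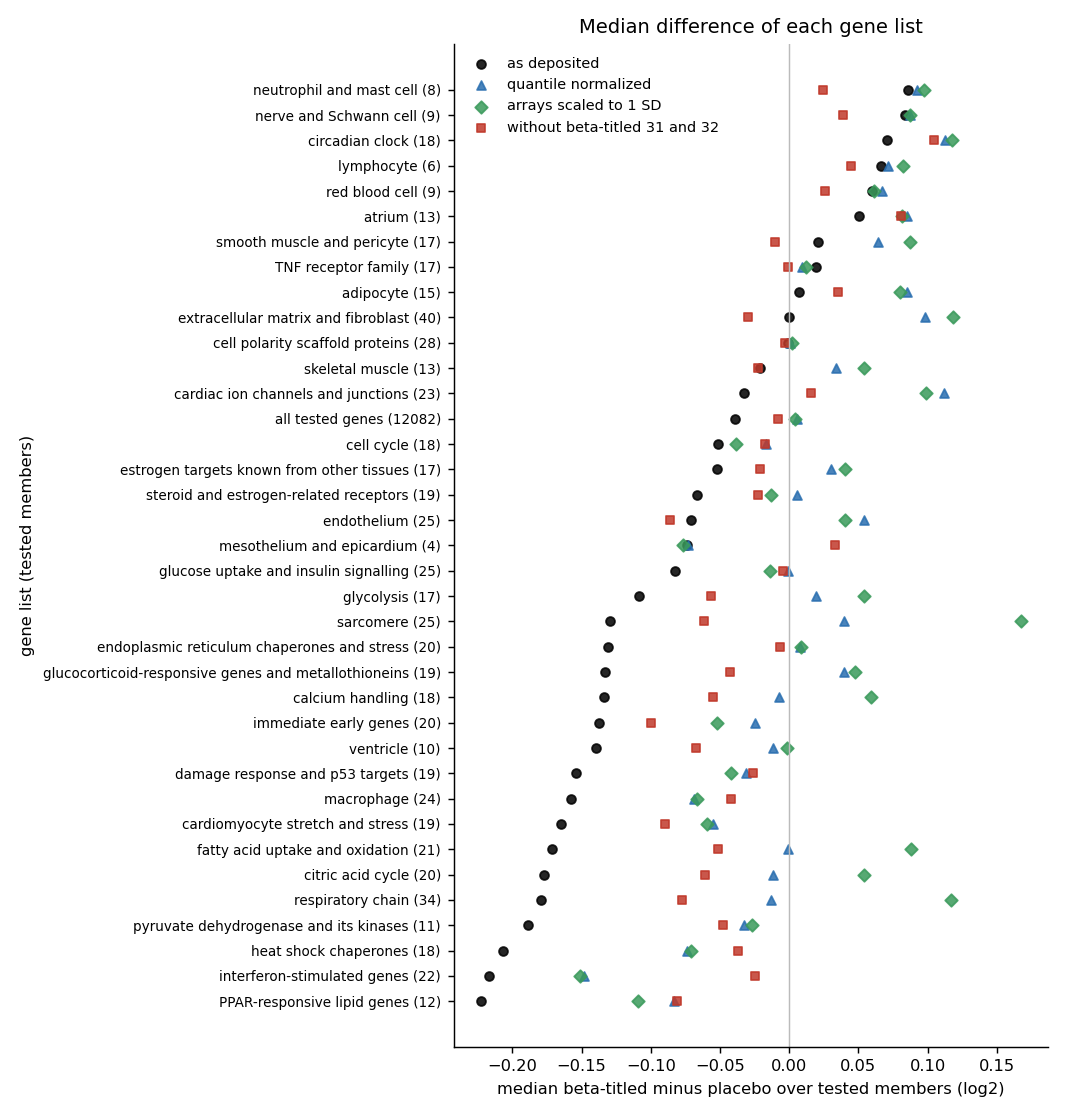
Median beta-titled minus placebo difference (log2) of the tested members of each gene list under 4 settings, ordered by the value as deposited, with all tested genes for comparison. Black points for respiratory chain, citric acid cycle, sarcomere and fatty acid genes lie at −0.18 to −0.13, and the green points for arrays scaled to 1 SD lie above 0.

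Markers of other cell types gave few small p. Over 13 of the 36 lists no gene had an unadjusted p under 0.05, including fibroblast and matrix, smooth muscle, adipocyte, red blood cell, lymphocyte, atrial, ventricular and skeletal muscle genes. Endothelial genes had 3 of 25 lower (Emcn, Pecam1 and Prox1, by −0.22, −0.26 and −0.25), against 5.33% over all tested genes, while Nos3, endothelial nitric oxide synthase, differed by 0.00. After quantile normalization 1 endothelial gene was lower and 2 were higher, 1 was lower without beta-titled 31 and 0 without beta-titled 32. The endothelial median of −0.07 turned to 0.05 after quantile normalization. The 17 tested genes known as estrogen targets in other tissues had 8 above placebo, 0 of small unadjusted p in either direction and a median of −0.05 that became 0.03 after quantile normalization. Ptgds, the prostaglandin D synthase among them, differed by −0.20 ± 0.13 (SE), and by 0.05 after scaling to 1 SD.

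The genes that changed with 16α-LE2 are set beside their beta-titled values here, and both comparisons share the 5 placebo arrays. With 16α-LE2, 27 genes (0.223%) passed an adjusted p of 0.05 against placebo. In the beta-titled group 1 of these 27, Tnfaip2, had an unadjusted p under 0.05, where 5.7% of all tested genes did, and the median size of the difference was 0.09, against 0.63 with 16α-LE2. Over all tested genes the median size in the beta-titled group was 0.079. Sparc, a collagen-binding matrix protein, read 12.01, 11.36, 11.80, 11.83 and 11.75 in beta-titled 31, 32, 33, 35 and 36, 11.74 to 12.08 in placebo and 10.66 to 11.12 with 16α-LE2. The beta-titled and placebo arrays overlapped, and all 16α-LE2 arrays lay below both. Its difference from placebo was −0.09 ± 0.11 (SE; limma adjusted p = 0.833), a sign that turned after either scaling and without beta-titled 32.

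Col3a1, a fibrillar collagen, differed from placebo by 0.09 ± 0.20 (SE; limma adjusted p = 0.92), with the opposite sign when all its probe sets were averaged, and Nrep by −0.03 ± 0.18, with the opposite sign after either scaling. The extracellular matrix and fibroblast list had 20 of 40 genes above placebo, 0 of small unadjusted p, and a median of −0.00 that was 0.10 after quantile normalization. Tested directly, 16α-LE2 arrays differed from the beta-titled arrays in 21 genes (0.174%) at an adjusted p under 0.05, 13 of them among the 27. The 27 were chosen with the same 16α-LE2 arrays that this contrast uses. The overlap of 13, and the p-values that follow for genes of the 27, are therefore not independent of that choice. Sparc fell by 0.90 on the log2 scale against the beta-titled group, Col3a1 fell by 1.57 and Nrep by 1.21, with limma adjusted p of 0.00042, 0.00042 and 0.00315. Spon1, a secreted matrix protein, was 0.74 higher (limma adjusted p = 0.00359), and Aplnr, the apelin receptor, fell by 1.69 (0.0156). With limma, estradiol arrays differed from the beta-titled arrays in 0 genes (0%) at that threshold and in 463 (3.83%) at an unadjusted p under 0.05. Against placebo the estradiol counts were 0 (0%) and 1163 (9.63%).

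**Figure D5:**
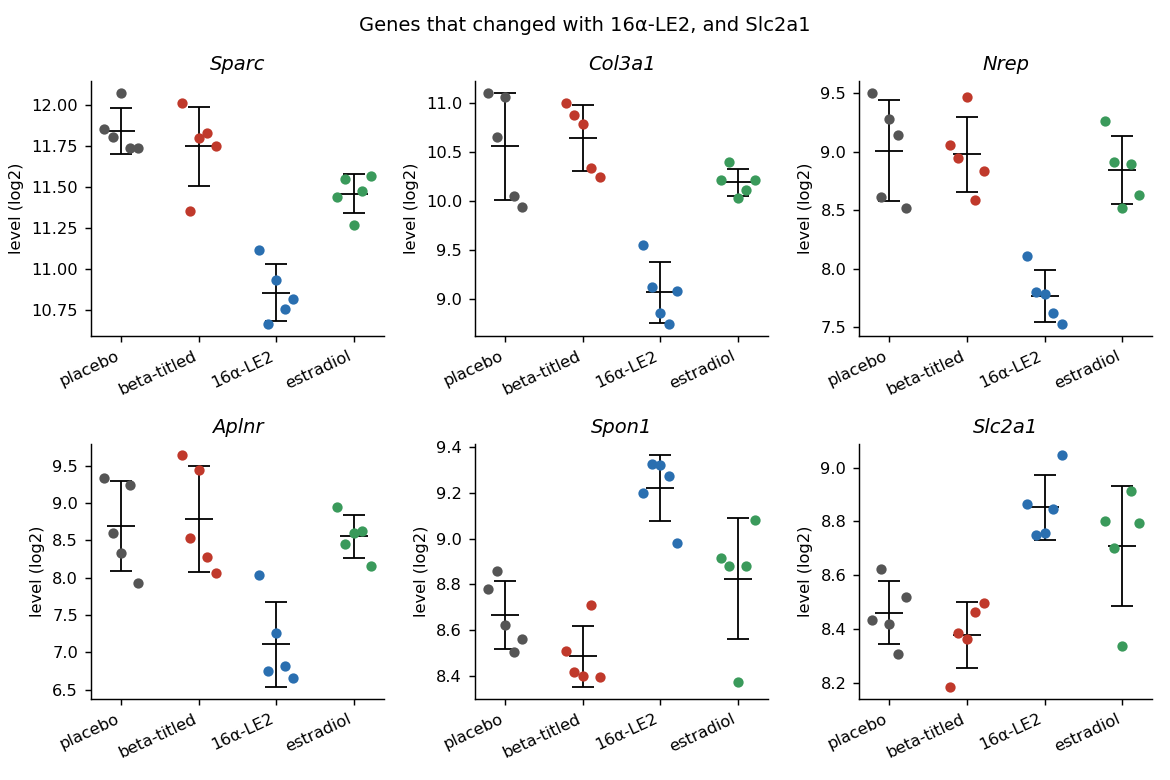
Levels (log2) of 5 genes that changed between 16α-LE2 and placebo, and of Slc2a1, on all 20 arrays; points are arrays and bars mean ± SD over 5 arrays. Beta-titled and placebo arrays overlap for all 6 genes, and the 16α-LE2 mean of Sparc (10.85) lies below the beta-titled (11.75) and placebo (11.84) means.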

How the data were processed

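The authors deposited 1 value for each of 45101 probe sets and 20 arrays, prepared from 100 ng total RNA each per the labels. The deposited values, from 5.07 to 15.31, were read as log2. How the authors summarized and normalized them, and the log base, is not given in the sources used here, so each fold rests on that reading. Control probe sets (64) and probe sets without exactly 1 symbol in the platform annotation were left out. Each gene was represented by its probe set of highest mean over all arrays, and genes with a mean above 6.93 (the median probe set) were tested, 12082 of 18193. Gene IDs of 12037 were found in the RefSeq table (GRCm38.p6) with the same symbol. No array of a replicate group was left out or imputed.

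All 20 arrays were fitted with group means in limma 3.58.1 (R 4.3.3; eBayes with intensity trend), with Benjamini-Hochberg adjustment over all tested genes and a threshold of 0.05; a 95% interval and SE come from that fit. The shared spread means that the 5 estradiol and 5 16α-LE2 arrays also affect the p-values, and the number of arrays limits the precision. Estradiol 33 held the lowest and highest values of the series, 5.07 and 15.31, and the highest array median, 7.03. The median SD of a gene was 0.200 in estradiol, 0.129 in beta-titled, 0.118 in placebo and 0.102 in 16α-LE2 arrays. Without estradiol 33 the count of genes at an unadjusted p under 0.05 rose from 689 to 1269 in limma. The fit was tested on simulated data. Figures used matplotlib 3.10.9.

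The members and the 36 gene lists were chosen with earlier results of these data known, and no list was tested as a set. Genes named were the 12 of smallest p above and the 12 below placebo, the 5 largest differences in each direction, up to 3 members of smallest p in each list, and Slc2a1, Slc2a4, Esr1, Esr2, Nppa, Myh7, Pdk4, Cdkn1a, Tnfrsf12a, Mpp7, Sparc, Col3a1 and Nrep. Nppb, Dbp, Nfil3, Igtp, Nos3, Myl2, Myl7, Spon1, Aplnr and the genes named for an E-box were named with their values known. As alternatives, the low-level filter, the way probe sets were summarized, the scaling, array weights, the arrays fitted, a replicate block, the variance model and the threshold were varied, and each array was left out in turn. Leaving out beta-titled 31 and 32, these and placebo 33, and scaling to 1 SD were added after the data were examined. Replicate numbers 31, 32, 33 and 36 occur in both groups. Deviations of same-numbered arrays correlated at −0.22, 0.21, 0.35 and 0.02, so the numbers were not taken to pair the samples.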

Additional observations from a re-analysis of the deposited data

Results flagged for a closer look

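In 7 of 168 groups of 5 arrays (84 genes, beta-titled and placebo each), 1 array stood apart by Dixon's criterion for 5 values, a gap over range above 0.71, where chance gives about 1 in 20. Myh7, the β myosin heavy chain gene, read 10.64 in beta-titled 35 against 9.93 to 10.01 in the other beta-titled arrays. Tent5a read 8.43 in beta-titled 31 against 8.65 to 8.70, and Myot, a Z-disc protein gene, read 9.65 there against 10.09 to 10.25. Prox1, a lymphatic endothelial and cardiac transcription factor gene, read 7.52 in beta-titled 33 against 7.13 to 7.21. Synrg read 7.22 in beta-titled 36 against 7.11 to 7.13. Placebo 36 stood apart for the interferon-induced genes Igtp and Ifit3: Igtp read 12.56 against 8.46 to 8.72 in the other placebo arrays, and Ifit3 read 10.15 against 8.25 to 8.67.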

How the results depend on the processing

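No gene passed the threshold with limma at any setting, nor at an adjusted p of 0.10 with the main fit. The smallest adjusted p over all settings was 0.0543, for Mpp7 without placebo 32. What moved was the count of genes at an unadjusted p under 0.05, 689 in the main fit. It was 1078 with no filter and 1101 with each probe set as its own feature. It was 243 after quantile normalization and 265 with arrays scaled to 1 SD. With only the beta-titled and placebo arrays fitted it was 826, and without estradiol replicate 33 it was 1269. The count was 41 without beta-titled 31 and 32, and 19 when placebo 33 was left out too. Without 1 array it ranged from 156 to 1174. It was 187 without beta-titled 31, 156 without 32, 1107 without 33, 1052 without 35 and 1136 without 36. Without placebo 31, 33 or 36 it was 435, 234 or 1174. Genes whose groups do not overlap numbered 102 as deposited, 208 with no filter, 47 with a mean above 8, 58 after quantile normalization, 262 without beta-titled 31, 32 and placebo 33, and 111 to 405 without 1 array, which fewer arrays favour by construction.

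The replicate number as a block over all arrays gave 577 genes at an unadjusted p under 0.05, and over the 4 shared numbers alone 1347, with a smallest adjusted p of 0.0874 for Mmp3. The block changed no call.

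After quantile normalization the list medians were −0.013 for respiratory chain, −0.012 for citric acid cycle and 0.040 for sarcomere. With arrays scaled to 1 SD they were 0.12, 0.054 and 0.17. Without 1 array they ranged from −0.23 to −0.13, from −0.23 to −0.12 and from −0.17 to −0.082. The cause of these moves was not tested.

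Among the 84 genes followed, 19 changed sign at some setting. With arrays scaled to 1 SD, Slc2a4 (0.065), Nppa (0.053), Sparc (0.11), Nrep (0.049), Csrp3 (0.050), Pgk1 (0.010), Pdha1 (0.081), Cd36 (0.029), Acadl (0.089), Suclg1 (0.010), Fh1 (0.0064), Ndufa9 (0.033), Uqcrfs1 (0.064), Atp5a1 (0.11), Smpx (0.047) and Ptgds (0.047) lay above placebo. After quantile normalization Slc2a4 (0.074), Nppa (0.030), Sparc (0.094) and Nrep (0.078) did. Without beta-titled 31 and 32 and placebo 33, Sparc was 0.0069, Nrep 0.020 and Igtp 0.019. Without beta-titled 31 and 32, Col3a1 was −0.10 and Igtp 0.24. Col3a1 was −0.023 with probe sets averaged and −0.060 with array weights, where Igtp was 0.24. Nrep was 0.038 with the replicate block over all arrays and 0.099 over shared numbers. Without 1 array the ranges were −0.30 to 0.012 for Nppa, −0.16 to 0.0037 for Sparc, −0.067 to 0.22 for Col3a1, −0.16 to 0.092 for Nrep, −0.48 to 0.57 for Igtp and −0.43 to 0.045 for Ifit3. The highest values of Igtp and Ifit3 were those without placebo 36, and of Nppa and Sparc those without beta-titled 32.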
